A study of Rattus norvegicus with 6 samples.

Results

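Potassium channel genes, here every gene with a symbol that starts with Kcn, were compared in the colon between S.LEW congenic and S rats. Of the genes represented on the array, 90 had such a symbol, with 117 probes between them. A probe was kept when the scanner software called it well above background in 3 or more of the 6 rats, which left 87 probes of 68 genes, out of 12418 genes with a symbol and a value in the deposited table. The other 22 genes, among them the epithelial inward rectifiers Kcnj10, Kcnj13 and Kcnj16, had no probe that passed and are counted as not measured. Of the 30 probes that did not pass, 7 were well above background on 2 arrays and 18 on none, and 6 of the kept probes passed on exactly 3 arrays.

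Gene expression was measured with single-color arrays in total colon RNA of 3 congenic rats, called C1 to C3, and 3 rats of the S strain, called S1 to S3, with 1 array per rat. S is the Dahl salt-sensitive strain, and the congenic strain, S.LEW(10)x12x2x3x5, carries a segment of chromosome 10 of the LEW rat on the S background. All 6 were males on a low salt (0.3% NaCl) diet that received 2 weekly injections of the colon carcinogen azoxymethane (AOM) at 15 mg/kg from 6 weeks of age and were killed at 30 weeks. The labels do not say whether tumor was part of the tissue, and no rat without AOM was measured.

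Potassium channels let potassium ions leave or enter the cell and so set its resting voltage. Voltage-gated (Kv) and calcium-activated (KCa) channels open on depolarization or a rise in calcium, inward rectifiers (Kir) pass current best near rest, and 2-pore-domain (K2P) channels carry background current. In the colon, channels of the epithelium supply the driving force for chloride secretion and release potassium into the lumen, while those of the muscle and of the interstitial cells of Cajal shape the slow waves that pace contraction.

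Values are the authors' quantile-normalized log2 intensities, on which a difference of 1 is a 2-fold change. The median of the 6 columns was 8.57 in C1, C2, C3 and S2 and 8.55 in S1 and S3. The sample labels were kept as given, and S2 stood apart from the other S rats. Over all probes its values correlated at 0.967 to 0.976 with the 3 congenic arrays, against 0.900 with S1 and 0.937 with S3, and S1 and S3 correlated at 0.980 with each other. Counts of calls, and the values of many single channel genes, are therefore also given without single S rats. C1 and the 3 S arrays shared a scan time and are taken here as slide 1, and C2 and C3 shared another. The median spot intensity before normalization was 273, 214 and 291 in C1, C2 and C3, and 594, 219 and 445 in S1, S2 and S3. Well above background were 80.9%, 73.8% and 78.5% of the spots, and then 86.3%, 83.2% and 87.6%.

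At the study's cut-offs, a change of at least 2-fold together with an unadjusted p below 0.05, 5 of the 68 genes were higher in the congenic colon (Kcnj12, Kcnip1, Kcne3, Kcns2 and Kcnh2) and 5 were lower (among them Kcnk13, Kcnv2, Kcnmb4 and Kcna3). Of all 12418 genes, 3.79% were called higher and 2.62% lower. By probes the counts were 7 higher and 6 lower of 87, beside 3.23% and 2.34% of all probes. No potassium channel gene had an adjusted p under 0.05 in limma (background 0%), and 16 of 68 had an unadjusted p under 0.05 (background 14.5%). The study's own method, which pools no spread between genes, called 3 higher (Kcne3, Kcnh2 and Kcnj12) and 2 lower (Kcnk13 and Kcnmb4), beside 2.60% and 0.797% of all genes, again with none at an adjusted p under 0.05. The strains did not overlap in 14 genes, 9 with every congenic rat above every S rat (background 14.2%) and 5 with every congenic rat below (background 5.01%). The log2 fold change was above 0 in 46 of 68 genes (background 52.9%), with a median of 0.27 against 0.03 over all genes. S2 was the highest S rat in 49 of the 68 genes (72.1%), against 46.6% of all genes. Among the 48 genes well above background on all 6 arrays, 5 were called higher and 2 lower in the same fit over all probes. Their median log2 fold change was 0.50. In a fit refitted to the probes that pass this stricter filter, 7 of the 48 were called higher and 2 lower. Of all 10799 genes in that refit, 3.973% were called higher and 2.102% lower, with a median of 0.055.

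These counts moved with single S rats. Without S2, 19 genes were called higher and 6 lower, beside 11.3% and 8.27% of all genes, and 24 of the 68 had an adjusted p under 0.05, as did 25.7% of all genes. Without S1 the counts were 3 higher and 2 lower, beside 2.79% and 1.47% of all genes, and without S3 they were again 3 and 2, beside 2.38% and 0.878%. Without C1 they were 6 and 4, beside 3.31% and 1.98%. Without C2 they were 6 and 3, beside 3.43% and 1.52%, and without C3 they were 4 and 3, beside 3.26% and 1.64%. By probes they were 26 and 6 without S2, 5 and 3 without S1, and 5 and 2 without S3. Over all 23997 probes the calls were then 2397 and 1725, 570 and 330, and 477 and 192. Channel probes called were 8 and 5 without C1, 8 and 3 without C2, and 6 and 3 without C3. Over all probes the calls were then 688 and 536, 706 and 336, and 689 and 357. With slide as a block the gene counts were 2 and 2, beside 2.66% and 1.02% of all genes, and within slide 1 they were 2 and 3, beside 2.15% and 0.894%. Since C2 and C3 are alone on the other slide, both fits compare C1 alone with the S rats and give the same log2 fold change, and within slide 1 C1 is assumed to vary like the S rats. An exact permutation test of 3 rats against 3 cannot give a two-sided p under 0.1, so the calls below rest on the fit across all probes.

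**Figure D1:**
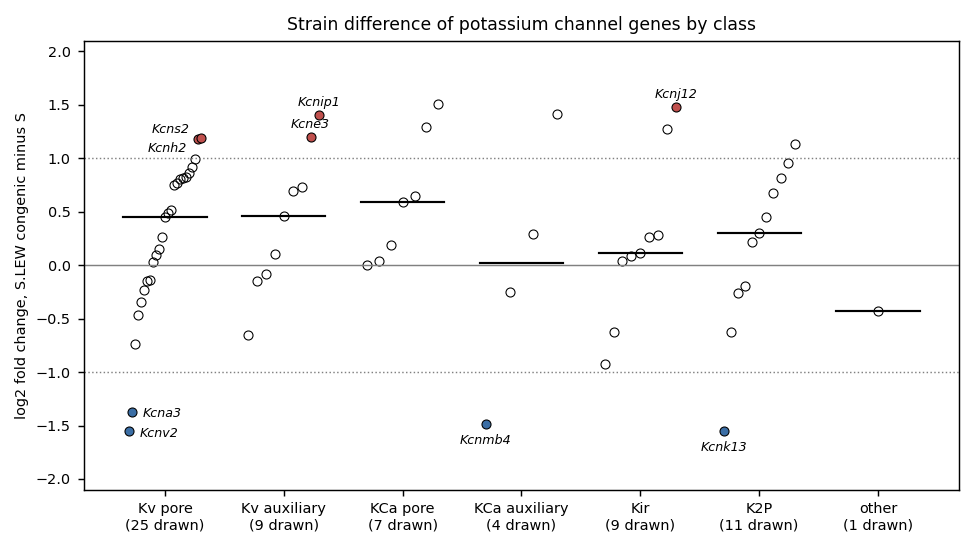
Log2 fold change (congenic minus S, log2 units) of 66 of the 68 potassium channel genes by channel class, 1 point per gene, with the class median as a bar and dotted lines at a 2-fold change. Filled points passed the cut-offs, red higher and blue lower in congenic rats, and the median lies above 0 in each class but the single gene labelled other.

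By class, beside the 3.79% of all genes called higher and 2.62% called lower, 4 Kv genes of 36 were called higher and 3 lower, with a median log2 fold change of 0.45. In the KCa class no gene of 11 was called higher and 1 was called lower, with a median of 0.29. Of 9 Kir genes 1 was higher and none lower (median 0.11), and of 11 K2P genes none was higher and 1 lower (median 0.30). A single call in 9 to 11 genes is too few to set against those shares. Kcnrg, a regulator of Kv channels outside these classes, did not pass. The 22 genes not measured were 11 Kv pore genes, 3 Kv auxiliary genes, 6 Kir genes and 2 K2P genes.

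**Figure D2:**
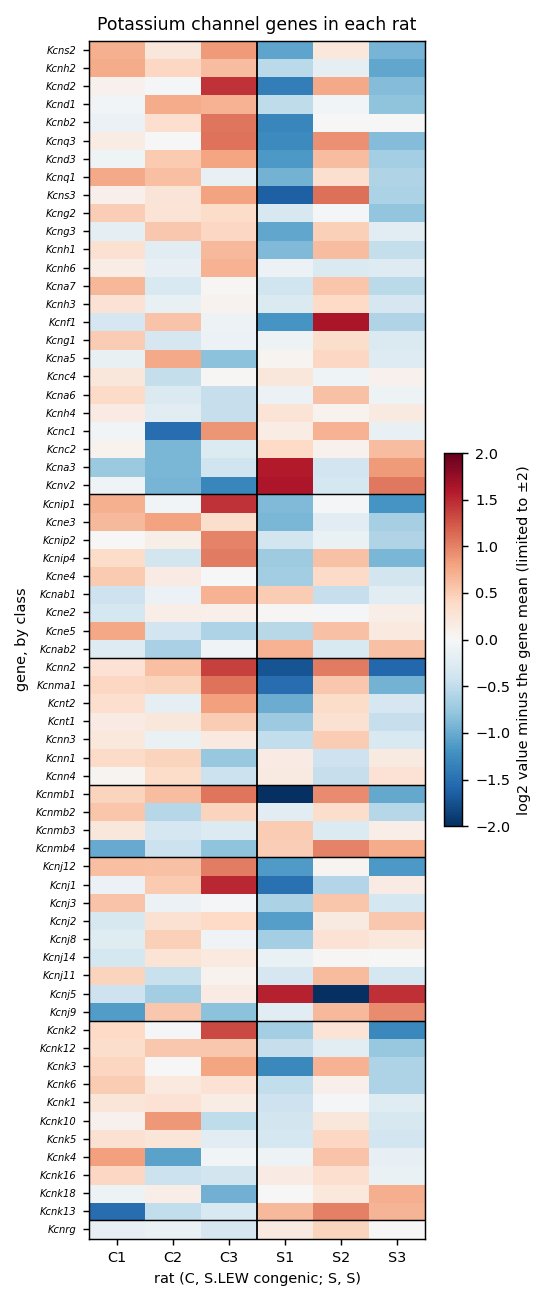
Deposited log2 value of 66 of the 68 potassium channel genes (rows, by class and then by log2 fold change) minus its mean over the 6 rats (columns), with colors limited to 2 log2 units either way. In many rows S2 is colored like the congenic rats, and S2 was the highest S rat in 49 of the 68 genes.

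Among the Kv pore subunits, Kcnh2 encodes the ERG channel, which sets the resting voltage of gastrointestinal smooth muscle. Its log2 values were 11.02, 10.69 and 10.89 in C1, C2 and C3, and 9.74, 10.09 and 9.24 in S1, S2 and S3. Every congenic rat lay above every S rat, with S2 the nearest. The means were 10.87 ± 0.17 and 9.69 ± 0.43 (SD, n = 3 each), a log2 fold change of 1.18 (SE 0.26, adjusted p = 0.245). A dimmer probe of the gene gave 1.54 with no overlap. It missed the cut-offs without S3 (0.95) and against S2 alone (0.78).

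Kcns2 encodes a silent subunit that modifies other Kv channels. It read 10.16, 9.68 and 10.31 in the congenic rats, against 8.39, 9.66 and 8.53 in S1, S2 and S3. S2 lay just under C2, and the other S rats lay more than a log2 unit below every congenic rat. The log2 fold change was 1.19 (SE 0.38, adjusted p = 0.333), and without S2 it was 1.59. It missed the cut-offs without S1 (0.95), S3 (1.02), C1 (1.13) or C3 (1.06), with slide as a block (1.30) and against S2 alone (0.39).

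Kcnq1, which carries basolateral current in crypt cells, differed by 0.81 (SE 0.41) and did not pass, with S2 inside the congenic range. It passed without S2 (1.18) or without C3 (1.08).

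Of the Kv pore genes 3 were called lower, Kcnv2 and Kcna3 among them. Kcna3, the Kv1.3 channel of T cells and macrophages, read 5.75, 5.58 and 6.10 in the congenic rats, against 8.08, 6.11 and 7.35 in S1, S2 and S3. S1 and S3 were high, and S2 lay only just above C3. The log2 fold change was -1.37 (SE 0.50, adjusted p = 0.354), and the probe was well above background on 2 of 3 congenic arrays. Without S2 it was -1.91. It missed the cut-offs without S1 (-0.92), S3 (-1.28), C1 (-1.34) or C2 (-1.25), with slide as a block (-1.43), with normexp (-0.74) and against S2 alone (-0.30). Normexp is another background correction, applied to the scanner's median signals.

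Kcnv2, a silent subunit known from photoreceptors, read 7.26, 6.42 and 6.04 in the congenic rats, against 8.97, 7.001 and 8.41 in S1, S2 and S3. S2 lay within the congenic range and S1 and S3 above it. The log2 fold change was -1.55 (SE 0.56, adjusted p = 0.354), and without S2 it was -2.12. It missed the cut-offs without S1 (-1.13), S3 (-1.41), C2 (-1.48) or C3 (-1.29), with slide as a block (-0.87) and against S2 alone (-0.43).

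Kcng2, a modifier of other Kv channels, lay higher in every congenic rat, but its log2 fold change of 0.75 (SE 0.24) did not pass. Kcnd3, a Kv4 pore of muscle and pacemaker cells, differed by 0.81 (SE 0.49), and by 1.33 without S2, which passed. Of the 27 Kv pore genes, 18 had a log2 fold change above 0. Of 17 potassium channel genes with more than 1 kept probe, 7 had probes that differed in sign, Kcng1 and Kcnc2 among them, and 3 had probes that differed in call. The brighter Kcng1 probe differed by 0.03 and a dimmer one by -1.24, called lower, while the Kcnc2 probes gave -0.74 and 1.01. Kcna5, a smooth muscle Kv1 subunit, was at background level in all 3 congenic rats and well above it in the S rats, but the strains overlapped, with C2 above every S rat, and no direction is given.

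**Figure D3:**
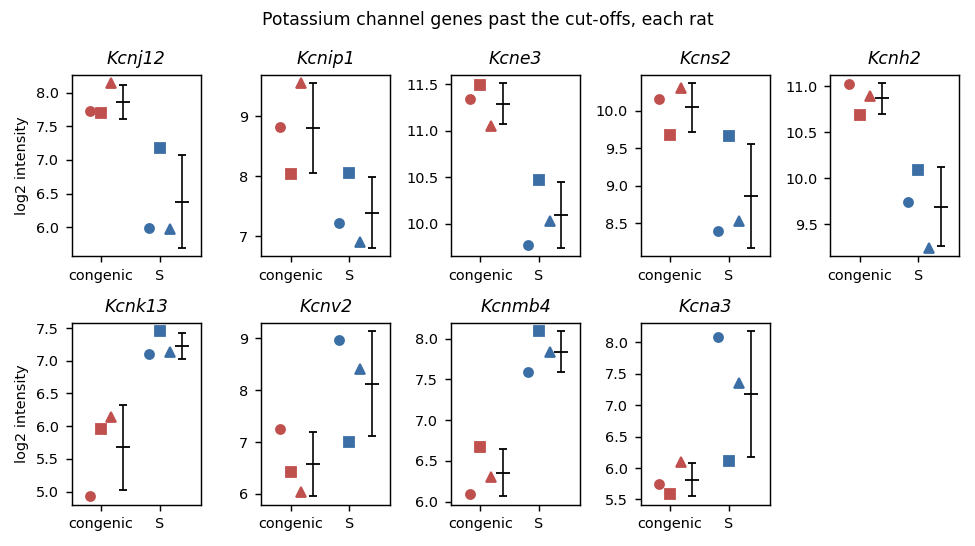
Deposited log2 intensity of 9 of the 10 potassium channel genes past the cut-offs in each rat, with congenic rats in red and S rats in blue, circles, squares and triangles for replicates 1, 2 and 3, and black bars for mean ± SD. The axes do not start at 0, and S2 (blue square) is the S rat nearest the congenic rats in 7 of the panels.

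Among the Kv auxiliary subunits, Kcne3 partners Kcnq1 in crypt epithelium and makes it open at all voltages, which chloride secretion needs. It read 11.34, 11.49 and 11.05 in the congenic rats, against 9.77, 10.47 and 10.03 in S1, S2 and S3. Every congenic rat lay above every S rat. The means were 11.29 ± 0.22 and 10.09 ± 0.35 (SD, n = 3 each), a log2 fold change of 1.201 (SE 0.25, adjusted p = 0.228). The call was kept without any 1 rat, at 1.04 to 1.39, and for C1 alone against the S rats, with slide as a block, at 1.25. Against S2 alone the difference was 0.82 and missed the cut-offs.

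Promoters are printed for Kcne3 and Kcnmb4, which kept their calls under most settings in opposite directions, and for Kcnmb1, which encodes a smooth muscle subunit and ran low in S1 and S3. The sequences are from RefSeq (GRCr8), which held promoters for 44 of the 68 genes, and run 5′ to 3′ along the gene for 300 bases around its start. Capitals mark GC boxes, with the letters GGGCGG on either strand. The letters TATAAA of the TATA box, the letters CCAAT of the box named after them, and the CArG box were searched on both strands as well, and none lay in these windows. Kcne3 is on the plus strand at chr1:163935785-163936084, Kcnmb4 on the minus strand at chr7:54005052-54005351, and Kcnmb1 on the plus strand at chr10:19061849-19062148.
Kcne3: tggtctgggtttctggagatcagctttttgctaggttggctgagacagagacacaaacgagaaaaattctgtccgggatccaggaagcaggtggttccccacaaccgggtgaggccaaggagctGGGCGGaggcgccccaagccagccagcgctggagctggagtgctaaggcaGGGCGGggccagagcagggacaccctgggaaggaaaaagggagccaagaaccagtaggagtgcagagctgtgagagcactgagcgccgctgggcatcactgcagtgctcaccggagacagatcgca
Kcnmb4: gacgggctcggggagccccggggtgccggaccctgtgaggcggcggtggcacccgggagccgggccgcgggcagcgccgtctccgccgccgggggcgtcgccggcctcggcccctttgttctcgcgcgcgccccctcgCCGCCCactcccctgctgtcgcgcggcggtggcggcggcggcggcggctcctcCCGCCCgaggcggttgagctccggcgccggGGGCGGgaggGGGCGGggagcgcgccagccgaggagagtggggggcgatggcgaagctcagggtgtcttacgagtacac
Kcnmb1: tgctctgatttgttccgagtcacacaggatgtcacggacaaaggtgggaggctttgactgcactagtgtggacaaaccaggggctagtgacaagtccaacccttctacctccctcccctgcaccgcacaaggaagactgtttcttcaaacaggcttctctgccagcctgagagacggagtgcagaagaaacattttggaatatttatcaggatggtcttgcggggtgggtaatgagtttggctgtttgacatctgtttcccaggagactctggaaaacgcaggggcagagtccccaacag
Kcne3 held 2 GC boxes, Kcnmb4 held 4 and Kcnmb1 none, with no overlap between matches. Of 33469 promoters of this length, 33.1% held a GC box, 14.2% a TATA box, 37.5% a CCAAT box and 1.64% a CArG box.

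Kcnip1, a calcium-binding partner of Kv4 channels, read 8.81, 8.04 and 9.55 in the congenic rats, against 7.22, 8.05 and 6.91 in S1, S2 and S3. S2 and C2 were level, so the strains overlapped. The log2 fold change was 1.41 (SE 0.46, adjusted p = 0.336), and it missed the cut-offs without S1 (1.32), S3 (1.17), C1 (1.40) or C3 (1.03), with slide as a block (1.42) and against S2 alone (0.75). Without S2 the Kcnip1 value was 1.735. A dimmer Kcnip1 probe gave 2.52 with no overlap and was called higher. That probe was well above background on only 2 congenic arrays and 1 S array. The mean of both Kcnip1 probes gave 1.96. Kcnip2, of the same family, lay higher in every congenic rat, but its log2 fold change of 0.73 did not pass. Kcne2, a partner of Kcnq1 in stomach, differed by -0.09 (SE 0.20). Over the 9 Kv auxiliary genes the log2 fold change ran from -0.65 to 1.41, with 6 above 0.

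Among the KCa channels, Kcnma1 encodes the BK pore and Kcnmb1 its smooth muscle β1 subunit. Kcnmb1 read 9.76, 9.94 and 10.39 in the congenic rats, against 7.28, 10.28 and 8.30 in S1, S2 and S3. Kcnma1 read 8.20, 8.23 and 8.88 and then 6.27, 8.33 and 6.84. In both, S1 and S3 were low and S2 lay inside the congenic range. The log2 fold changes of 1.41 (SE 0.73, adjusted p = 0.433) and 1.29 (SE 0.54, adjusted p = 0.385) did not pass. Without S2 they were 2.24 and 1.88 and passed, and against S2 alone they were -0.25 and 0.11. Of the other Kcnma1 probes, 1 gave 0.72 and 1 gave -0.29.

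Kcnn2, an SK channel of gut pacemaking and inhibitory signaling, followed the same order, with 6.75, 7.06 and 7.82 in the congenic rats, against 4.72, 7.49 and 4.88 in S1, S2 and S3. S2 lay inside the congenic range. Its log2 fold change of 1.51 (SE 0.77, adjusted p = 0.429) did not pass, and without S2 it was 2.41 and passed. Kcnn3, of the same SK group, differed by 0.19 (SE 0.30). Kcnn4, the intermediate-conductance channel of colonic crypts and lymphocytes, read 10.79, 11.11 and 10.30 and then 10.92, 10.27 and 11.02, with the strains fully interleaved. Its log2 fold change was -0.00 (SE 0.30), with a 95% interval from -0.73 to 0.73.

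Kcnmb4, the β4 subunit that slows BK gating, went the other way. It read 6.09, 6.67 and 6.30 in the congenic rats, against 7.59, 8.09 and 7.84 in S1, S2 and S3. Every congenic rat lay below every S rat, and S2 was the highest. The means were 6.35 ± 0.29 and 7.84 ± 0.25 (SD, n = 3 each), a log2 fold change of -1.49 (SE 0.23, adjusted p = 0.205). It was the 1 gene of the 10 to pass the cut-offs under all 18 alternatives, with values from -1.75 to -1.01.

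Among the inward rectifiers, Kcnj12 (Kir2.2) read 7.72, 7.70 and 8.14 in the congenic rats, against 5.99, 7.18 and 5.98 in S1, S2 and S3. Every congenic rat lay above every S rat, with S2 nearest. The log2 fold change was 1.48 (SE 0.37, adjusted p = 0.268), and it missed the cut-offs with slide as a block (1.34), with normexp (0.92) and against S2 alone (0.68). Without S2 the Kcnj12 value was 1.88. Over the 9 Kir genes the log2 fold change ran from -0.93 to 1.48, with 7 above 0. Kcnj8, the pore of the vascular and smooth muscle KATP channel, differed by 0.11 (SE 0.34), and Kcnj2, of the strongly rectifying Kir2 group, by 0.26 (SE 0.46). Kcnj5, a G protein-gated subunit, read 6.11, 5.83 and 6.68 in the congenic rats, against 8.05, 4.45 and 7.98 in S1, S2 and S3. S1 and S3 lay above the congenic rats and S2 below them, and the log2 fold change of -0.62 (SE 0.97) did not pass. Without S2 it was -1.82 and passed as lower, and against S2 alone, a single rat, the difference was 1.75.

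Among the K2P channels, Kcnk1, Kcnk6 and Kcnk12 lay higher in every congenic rat without passing. Kcnk1 (TWIK-1) read 12.03, 12.07 and 11.93 in the congenic rats, against 11.38, 11.76 and 11.54 in S1, S2 and S3, a log2 fold change of 0.46 (SE 0.18). Kcnk6 (TWIK-2) differed by 0.67 (SE 0.25) and Kcnk12 (THIK-2) by 0.95 (SE 0.20). Kcnk12 reached 2-fold without S2 (1.09) or C1 (1.01). Kcnk2 (TREK-1), a stretch-sensitive channel of muscle, differed by 1.13 (SE 0.50) and did not pass, though it did without S2 (1.55) or C2 (1.43), and a dimmer probe gave -0.25. Kcnk5 (TASK-2), of epithelial volume and pH control, differed by 0.21 (SE 0.29) with overlapping strains.

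Kcnk13 (THIK-1), a channel of macrophages and microglia, read 4.92, 5.96 and 6.14 in the congenic rats, against 7.10, 7.45 and 7.13 in S1, S2 and S3. Every congenic rat lay below every S rat, a log2 fold change of -1.56 (SE 0.35, adjusted p = 0.247). Its spots on the S2 array were marked as outliers by the scanner software, and it was well above background on 2 of 3 congenic arrays. A second probe gave 0.32, with a mean over the 6 rats nearly tied with the first, so the choice between them sets both the call and its sign. The mean of both gave -0.62 and normexp gave -0.51, neither of which was called.

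Channels were also grouped by a cell type of the colon in which they have a known role, with each gene in 1 group only. Of 11 measured channels of smooth muscle and pacemaker cells, 10 had a log2 fold change above 0, with a median of 0.82, and 1, Kcnh2, was called higher. Of all genes 52.9% were above 0 and 3.79% were called higher. S2 was the highest S rat in 10 of the 11, against 46.6% of all genes. Against each gene's mean over the 6 rats, these 11 averaged 0.20, 0.37 and 0.60 in C1, C2 and C3, and -1.03, 0.48 and -0.63 in S1, S2 and S3. S1 and S3 were low, and S2 stood among the congenic rats. Kcnk3 (TASK-1), an acid-sensitive background channel, was one of them, at 10.10, 9.67 and 10.46 and then 8.37, 10.36 and 9.05. Its log2 fold change of 0.82 (SE 0.52) did not pass, and without S2 it was 1.36 and passed.

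The smooth muscle markers varied the same way. For the counts of markers called, the shares of all genes are 3.79% higher and 2.62% lower. All 9 of 9 were measured, 1 of them (Smtn) was called higher, and the average against each gene's mean was 0.39, 0.38 and 0.56 in the congenic rats, against -1.47, 0.73 and -0.59 in S1, S2 and S3. The log2 of their summed intensity was 19.16, 19.22 and 19.33 and then 17.54, 19.39 and 18.57, with Actg2 the brightest. In total RNA, fewer cells of a type and less RNA per cell cannot be told apart. The part of muscle content in the channel values was not tested.

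**Figure D4:**
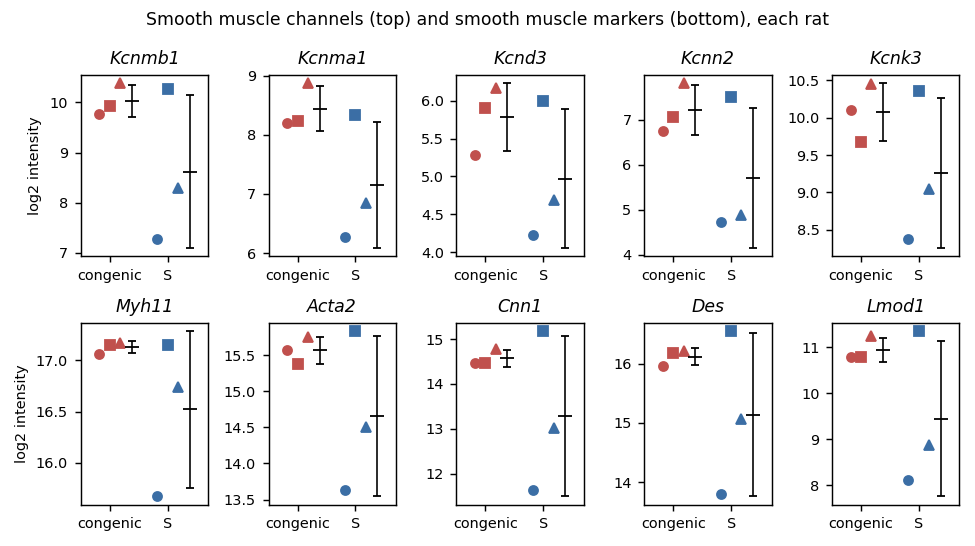
Deposited log2 intensity in each rat of 5 smooth muscle channel genes (top) and 5 of the 9 smooth muscle markers (bottom), with congenic rats in red and S rats in blue, circles, squares and triangles for replicates 1, 2 and 3, and black bars for mean ± SD. The axes do not start at 0, and S1 and S3 lie below all congenic rats in each panel drawn, with S2 among or above them. The genes drawn were picked, and Kcnma1 is counted in the text with the channels of the epithelium. Of the smooth muscle channels not drawn, Kcnj8 had S3 inside the congenic range and Kcnj2 had S3 above it. Kcna5, at background level in the congenic rats, had S1 and S3 inside that range.

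Markers of the interstitial cells of Cajal, 3 of 3 measured with Ano1 the brightest, averaged 0.31, 0.01 and 1.01 in the congenic rats, against -1.06, 0.50 and -0.76 in S1, S2 and S3. Enteric neuron markers, 8 measured of 9 on the array with Uchl1 the brightest and Nos1 not past the filter, averaged 0.33, -0.17 and 0.82 and then -1.24, 0.84 and -0.57. In both lists S1 and S3 were again the low rats, and no gene was called. The log2 of the summed intensity was 11.23, 10.98 and 11.88 and then 10.29, 11.66 and 10.81 for the first list, and 14.19, 13.61 and 14.65 and then 12.49, 14.70 and 13.19 for the second.

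Of the 10 measured channels of the epithelium, 7 had a log2 fold change above 0 (52.9% of all genes), with a median of 0.37. Kcnma1 and Kcnmb4 were counted among these 10, although Kcnma1 is also the pore that pairs with the smooth muscle subunit Kcnmb1. Kcnma1 was low in S1 and S3, like Kcnmb1. Kcne3 was called higher and Kcnmb4 lower (3.79% and 2.62% of all genes), and Kcne3, Kcnk1 and Kcnk6 lay higher in every congenic rat (14.2% of all genes). S2 was the highest S rat in 8 of the 10 (46.6% of all genes). Against each gene's mean, these 10 averaged 0.21, 0.21 and 0.08 in the congenic rats, against -0.41, 0.20 and -0.29 in S1, S2 and S3. S2 thus stood inside the congenic range. The epithelial markers were all measured, 7 of 7, and 1 (Vil1) was called higher. They averaged 0.68, 0.57 and -0.02 in the congenic rats, against -0.72, -0.16 and -0.34 in S1, S2 and S3, and the log2 of their summed intensity was 16.97, 16.81 and 16.22 and then 15.55, 16.09 and 15.97, with Krt19 the brightest. Each congenic rat was above each S rat on both measures. The part of epithelial content in Kcne3 was not tested.

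Kcna3 and Kcnk13, known from lymphocytes and macrophages, were both called lower, Kcna3 with S1 and S3 highest. Of the T cell markers, 5 of 7 were measured and 3 were called lower (Cd3d, Cd3g and Lck), while Cd3e and Cd2 did not pass the filter. They averaged -0.74, -0.98 and -0.96 in the congenic rats, against 1.84, -1.16 and 1.998 in S1, S2 and S3. The log2 of their summed intensity was 10.82, 10.29 and 10.22 and then 12.99, 10.64 and 13.12, with Cd3d the brightest. S1 and S3 were high, and S2 was at or under the congenic level.

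Of 5 macrophage markers, all measured, Csf1r was called lower and Cd163 and Mrc1 higher. They averaged -0.28, 0.26 and 0.32 and then -0.06, -0.42 and 0.18, with S1 and S3 inside the congenic range and S2 below it. The log2 of their summed intensity was 9.88, 10.27 and 10.27 and then 11.45, 9.92 and 11.13, with Csf1r the brightest and S1 and S3 the highest. The part of immune cell content in Kcna3 and Kcnk13 was not tested.

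Genes that work with potassium channels were taken as a list of partners. Of 43 measured, 6 were called higher and 1 lower, with a median log2 fold change of 0.46, beside 3.79% and 2.62% of all genes. Without S2 the counts were 19 and 3, beside 11.3% and 8.27% of all genes. They were 3 and 0 without S1 (2.79% and 1.47% of all genes), 4 and 0 without S3 (2.38% and 0.878%) and 4 and 0 without C1 (3.31% and 1.98%). Without C2 they were 5 and 0 (3.43% and 1.52%), and without C3 they were 6 and 0 (3.26% and 1.64%). With slide as a block they were 5 and 0 (2.66% and 1.02%), and within slide 1 they were 4 and 0 (2.15% and 0.894%). Atp1b1, a subunit of the pump that loads cells with potassium, differed by 1.005 (SE 0.33). Slc12a2, the basolateral cotransporter that brings in chloride with potassium, read 12.05, 12.28 and 11.76 in the congenic rats, against 10.78, 11.47 and 10.68 in S1, S2 and S3. Every congenic rat lay above every S rat, a log2 fold change of 1.05 (SE 0.28, adjusted p = 0.276).

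Clcn2, a chloride channel, differed by 1.24 (SE 0.27), and Trpm4, a calcium-activated cation channel that depolarizes cells, by 1.60 (SE 0.24, adjusted p = 0.202). Both lay higher in every congenic rat. Cftr, the chloride exit that Kcne3 and Kcnq1 support, read 12.52, 12.84 and 12.17 and then 11.52, 11.87 and 11.20. Its strains did not overlap, but its log2 fold change of 0.98 (SE 0.27) missed a 2-fold change. Fxyd5, a pump regulator, was the partner called lower, at 7.54, 8.27 and 7.81 and then 11.72, 7.94 and 11.49, with S1 and S3 high and S2 inside the congenic range. No partner was called lower without S1 or without S3. Values of single partners are given with all rats only.

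Of the other marker lists, those of endothelium, tuft cells, fibroblasts and enteric glia had no gene called. In the congenic rats, 4 of 5 enteroendocrine, 2 of 8 surface colonocyte, 1 of 6 crypt stem cell, 1 of 6 goblet cell and 1 of 4 adipocyte markers were higher. Lower were 2 of 4 mast cell and 3 of 6 skeletal muscle markers, and 4 of these 5 were well above background in the S rats and in no congenic rat. The part of these lists in the channel values was not tested.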

How the data were processed

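Total colon RNA of 6 rats was hybridised to single-color Agilent rat arrays. The authors processed the images with Feature Extraction 11.0.1.1, and the deposited scanner files hold spot intensity values, background-corrected on each array alone. Quantile normalization by the authors, with a filter on detection, gave the deposited log2 table of 23997 probes. Its columns, with a median of 8.57 (C1, C2, C3, S2) or 8.55 (S1, S3), correlated at 0.9986 to 0.9998 with the log2 scanner intensity of the same array, which settles scale and direction, and no gene centring was seen.

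Accessions were matched to RefSeq genes (GRCr8), 18005 of 30367 probes. A gene is represented by its kept probe with the highest mean. The fit used limma 3.58.1 under R 4.3.3 (lmFit, eBayes, no covariates) over all 23997 probes with Benjamini-Hochberg adjustment, tested on simulated data. Exact permutation tests are two-sided. The report gives no fold for Kcna5, at background level in all congenic rats, whose fitted values appear only where its sign changed. The genes named were those past the cut-offs, those with a known role in colon cell types, and up to 3 per class with the largest difference among genes whose strains do not overlap. Kcnj5, Kcng1, the dimmer probes and the named partners were named after their values were seen. The members and lists were chosen with earlier results of these data known. The number of arrays limits the precision.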

Additional observations from a re-analysis of the deposited data

How the results depend on the processing

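Of 32 named genes, 19 had the same sign under every alternative with a value. Of 564 recomputed values, 452 kept their sign and their side of the cut-offs, 52 lost the call, 28 gained it and 32 changed sign. The cause was not tested.

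The counts of potassium channel genes called higher and lower, 5 and 5 as reported, were 2 and 2 with slide as a block and 2 and 3 within slide 1 (both C1 alone against the S rats, with equal values), 3 and 2 by the methods' t-test (none after Benjamini-Hochberg), 5 and 3 for the mean of a gene's probes, 5 and 2 with normexp on median signals (chosen after seeing the data, since the mean signal column planned for it was not in the files, and that planned form was not run), and 7 and 2 of 48 genes in a fit refitted to the probes well above background on all 6 arrays, where the fit over all probes gives 5 and 2. By probes, 7 and 6 as reported, they were 3 and 2, 3 and 3, and 4 and 2 for the slide block, slide 1 and the t-test, 6 and 2 with normexp and 8 and 2 on all 6 arrays. For the mean of a gene's probes, 697 of all 21749 genes and unmatched probes were called higher and 518 lower. Over all probes the calls were 443 and 187 within slide 1, and 683 and 347 of 20219 in the refit on all 6 arrays.

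S2 alone against the congenic rats was chosen after seeing the data, with the lone rat assumed to vary like the others. It gave a median log2 fold change of -0.22 over the 68 genes, beside 0.04 over all genes. Counts of calls are left out for this fit, since 1 group holds a single rat. With array weights 19 genes were higher, 8 lower and 40 had an adjusted p under 0.05, by probes 26, 9 and 51, and for partners 16, 3 and 28. The weight estimate did not converge and gave S3 a weight of 29.2 against 0.12 for S2, so these counts lean on S3. Of all genes 9.62% were then higher, 8.31% lower and 53.4% had an adjusted p under 0.05. With normexp, where 5 channel genes were higher and 2 lower, the shares of all genes were 1.933% and 2.150%. In the refit on all 6 arrays, with 7 and 2 of 48, the shares were 3.973% and 2.102% of 10799 genes.

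Leaving out 1 rat gave 3 to 19 genes higher, 2 to 6 lower and 0 to 24 with an adjusted p under 0.05. By probes it gave 5 to 26, 2 to 6 and 0 to 29, and for partners 3 to 19, 0 to 3 and 0 to 21. Each highest count came without S2.

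Partners called lower, 1 as reported, were 2 with 75th percentile scaling, 2 with the replicate block, and 0 without a filter, with slide as a block, within slide 1 and by the methods' t-test. Of all genes, 3.415% were lower with 75th percentile scaling, 3.575% with the replicate block and 1.957% without a filter. Replicate numbers did not pair the rats (correlations of deviations -0.016, -0.130 and -0.061). The replicate block gave 8 channel genes higher and 5 lower, beside 3.849% and 3.575% of all genes. It gave 11 channel probes higher, beside 794 of all 23997 probes.

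Over all probes the calls were 776 higher and 562 lower, and 695 and 762 with 75th percentile scaling, 358 and 393 with normexp, 551 and 227 with slide as a block, 515 and 178 by the methods' t-test, and 2397 and 1725 without S2.

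Signs changed against S2 alone for Kcnd3 (-0.21), Kcnj2 (-0.041), Kcnj5 (1.755), Kcnj8 (-0.23), Kcnk3 (-0.28), Kcnk5 (-0.31), Kcnmb1 (-0.25), Kcnmb2 (-0.21), Kcnn2 (-0.28), Kcnn3 (-0.41) and Kcnn4 (0.46). With slide as a block and within slide 1 they changed for Kcnj2 (-0.18), Kcnj8 (-0.18) and Kcnn4 (0.056), with array weights for Kcna5 (0.27), Kcnj2 (-0.37) and Kcnj8 (-0.11), with normexp for Kcna5 (0.10) and with 75th percentile scaling for Kcnn4 (0.013). Leaving out 1 rat changed the sign of Kcna5 (-0.552 to 0.234), Kcne2 (-0.171 to 0.073), Kcnj2 (-0.223 to 0.597), Kcnj8 (-0.197 to 0.285), Kcnn3 (-0.008 to 0.493) and Kcnn4 (-0.234 to 0.213). The values of Kcna5, at background level in the congenic rats, are fitted values and show no direction. Kcnk13 lost its call with normexp, which keeps spots marked as outliers (-0.51), and had no value in the other settings built on scanner intensities, which leave out its marked spots on S2.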
